A study of Drosophila melanogaster with 2 samples.

Results

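Big brother (Bgb) has no DNA-binding domain of its own and acts as the partner of the Runt domain transcription factors of the fly. Its positions on chromatin were examined at 10 genes of the Dpp pathway, taken by symbol: dpp, tkv, put, sax, Mad, Med, brk, shn, Dad and sog. They are 10 of the 13968 protein-coding genes in the Ensembl annotation of Drosophila melanogaster. A gene was given every peak whose summit, the highest point of the peak, lay between 2 kb upstream of the gene start and the gene end. The data are chromatin immunoprecipitation sequencing (ChIP-seq) of whole embryos aged 0 to 24 h that carried a transgene for Bgb joined to enhanced green fluorescent protein (eGFP). There were 2 samples of 1 group, biological replicates 1 and 2, both under one donor identifier, and no second condition. The labels are not of one mind on the antibody, since a sentence in them gives GFP as its target and a separate entry gives Bgb. The embryos were collected over the whole of embryogenesis and not sorted, so weak binding in many cells and strong binding in few cannot be told apart.

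Dpp (Decapentaplegic) is the fly counterpart of vertebrate BMP2 and BMP4. It binds a complex of type I and type II receptor kinases, which phosphorylate the Smad protein Mad. Mad then joins the common Smad, Med, and enters the nucleus, where the pair activates some genes and, with the zinc finger protein Schnurri (Shn), silences others. In the early embryo Dpp patterns the dorsal side, and Sog, a secreted protein made more ventrally, limits where it acts.

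The authors gave 4488 peaks in their conservative list, in which the replicates had been compared by the irreproducible discovery rate (IDR), and 6393 in a second, longer list. Replicate 1 alone had 6061 peaks and replicate 2 alone had 3200. The signal of a peak is the authors' own value, in the units of their peak caller. Conservative peaks had a median signal of 144.4 and an interquartile range of 95.3 to 261. These lists hold no read depth, and no control library was used here.

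The conservative list put 15 peaks in the windows of 8 of the 10 genes (80.0%, exact 95% binomial interval 44.4 to 97.5%, counting error only). Over all protein-coding genes the share was 37.4%. The 10 genes were a chosen list and not a random draw, so the interval is no test against this share. The ligand gene dpp, the receptor genes tkv, sax and put, the Smad cofactor gene shn, the repressor gene brk, the inhibitory Smad gene Dad and the antagonist gene sog each had at least 1 peak. The genes of both Smads that carry the signal, Mad and Med, had 0. Several of the windows are long, and long windows hold a peak more often. Among genes with windows under 10 kb, 3 of 4 pathway genes had a peak against 34.0% of all such genes, and the gene without was Med. In windows of 10 to 30 kb it was 1 of 2 against 54.4%, the gene without being Mad. In windows over 30 kb it was 4 of 4 against 53.9%, and these 4 genes (dpp, tkv, shn and sog) held 10 of the 15 peaks.

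The other lists gave other counts. In the second series list 9 of 10 genes had a peak, against 45.2% of all protein-coding genes, and in the list of replicate 1 it was 9 of 10 against 43.7%. In both, Med was the gene without. In the list of replicate 2 it was 5 of 10 against 29.5%, and put, Mad, Med, brk and sog were without. The number of peaks in the 10 windows was 21, 23 and 7 in these lists, in that order.

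**Figure D1:**
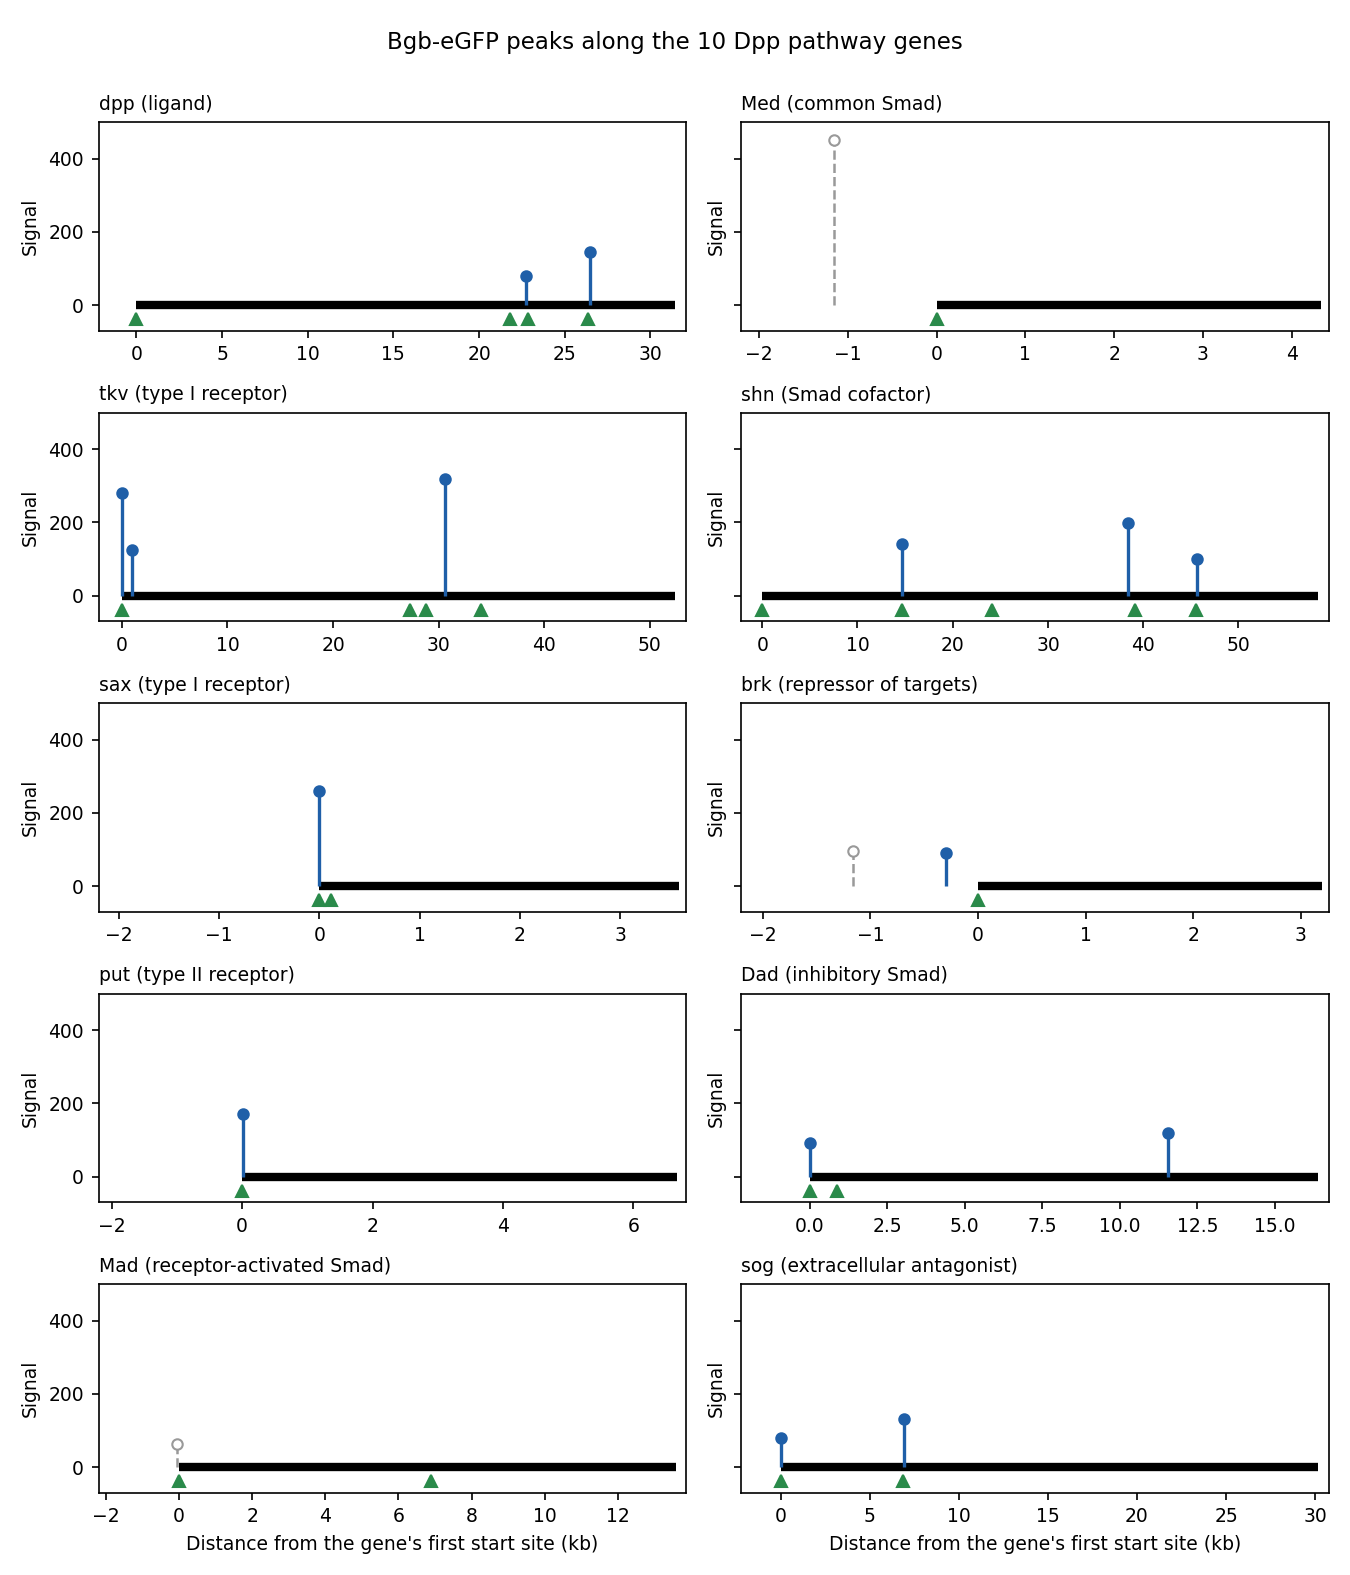
Position and signal of Bgb-eGFP peaks along each of the 10 genes. The x axis is the distance from the gene's first start site in kb along its direction of transcription and the y axis is the authors' signal. Black bars are the genes, green triangles their annotated start sites, and blue points the conservative peaks. Grey open points show the strongest ranked peak of Mad, Med and brk, which is not in the conservative list. In dpp, shn and sog the strongest peak lies at or near a later start site, and in Med the 452 signal lies upstream of the gene.

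The ligand gene dpp (FBgn0000490, chromosome 2L, 2428372 to 2459823, plus strand) has 4 annotated start sites spread over its first 26.4 kb. Its stronger peak (2L, 2454635 to 2455010) had a signal of 143.9, with 108 in replicate 1 and 40.8 in replicate 2. The summit lay in a 5′ UTR, 86 bp from the fourth start site. The weaker peak (2L, 2450908 to 2451283), in an intron 133 bp from the third start site, had 78.45, with 64.75 in replicate 1 and 30 in replicate 2. Both were higher in replicate 1, by 1.40 and 1.11 on the log2 scale. The first start site of dpp had no conservative summit nearer than 22724 bp, so both peaks lay at later start sites. The stronger peak recurred in each replicate's list, whereas the weaker was in that of replicate 1 and in neither the second series list nor that of replicate 2.

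The window of 101 bp around the weaker dpp summit is shown because it held the most matches of any pathway peak to GAGAG, the sequence bound by GAGA factor. Capitals mark its 6 matches, which form 3 separate runs and overlap within the longer ones, all as CTCTC, the same sequence read on the other strand. It is chr2L:2451046-2451146 of dm6, plus strand, from the RefSeq release 6 genome.
dpp weaker peak: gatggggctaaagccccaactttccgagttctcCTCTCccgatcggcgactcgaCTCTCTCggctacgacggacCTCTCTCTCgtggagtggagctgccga

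The type I receptor gene tkv (thickveins; FBgn0003716, 2L, 5219000 to 5271384, minus strand) had the strongest conservative peak of the 10 genes and 3 peaks in all. The strongest (2L, 5240706 to 5240911) had a signal of 318, with 147 in replicate 1 and 167 in replicate 2. It lay in an intron 30.57 kb into the gene, and the nearest start site was not that of tkv, at 1805 bp, but that of an aspartate transfer RNA gene, tRNA:Asp-GTC-2-1, at 49 bp. The next (2L, 5271277 to 5271502) lay 10 bp upstream of the first start site of tkv and had 279.6, with 224 in replicate 1 and 63.3 in replicate 2. The third (2L, 5270236 to 5270611), 960 bp inside the gene in an intron, had 124, with 78.9 and 49.9. All 3 recurred in both replicates' lists, but their replicates were ordered differently. The log2 ratio of replicate 1 to replicate 2 was −0.18 at the tRNA gene and 1.82 at the promoter, the lowest and the highest of the 15 pathway peaks. Of the 4 start sites of tkv, the first alone had a conservative summit within 1000 bp. The second series list added a peak of 93.2 lying 38 bp from the fourth.

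The intron and promoter summits of tkv are shown side by side, on the strand of tkv. In the intron window (chr2L:5240765-5240865 of dm6, minus strand), which takes in the tRNA gene on the opposite strand (2L, 5240766 to 5240837), capitals mark 1 CTCTC and 1 CTATCG, the other strand of CGATAG. The CTATCG lies within the tRNA gene. In the bases upstream of the promoter (chr2L:5271385-5271444, minus strand) capitals mark TATCGATA, the sequence bound by the replication-related factor DREF. These 60 bases stop at the gene start, 9 bp past the summit. The promoter window also held a CTATCG 15 to 20 bp past the summit, which is not printed.
tkv intron peak: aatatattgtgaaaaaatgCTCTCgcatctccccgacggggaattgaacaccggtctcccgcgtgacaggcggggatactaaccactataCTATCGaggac
tkv promoter peak: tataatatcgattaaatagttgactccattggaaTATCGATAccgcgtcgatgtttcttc

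The other type I receptor gene, sax (saxophone; FBgn0003317, 2R, 7806484 to 7810067, plus strand), had 1 narrow peak of 121 bp (2R, 7806440 to 7806560). Its signal was 259.9, with 175 in replicate 1 and 78.7 in replicate 2. The summit lay 7 bp upstream of sax and 92 bp from the start of Nop17l, which is transcribed the other way from a start site 99 bp away.

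The type II receptor gene, put (punt; FBgn0003169, 3R, 14619030 to 14625703, minus strand), had 1 peak of 171 (3R, 14625504 to 14625879), with 109 and 56.0 in the replicates. This summit lay 11 bp inside put and 63 bp from a start site of the histone gene His4r, on the opposite strand, whose nearest start site is 52 bp from that of put. The peaks at put and sax therefore each lie at a pair of divergent genes, and the signal cannot be assigned to one of them. The sax peak was in both replicates' lists and the put peak in that of replicate 1 only. Over the 3 receptor genes, the promoter peaks were all higher in replicate 1, with log2 ratios of 1.82 (tkv), 1.15 (sax) and 0.97 (put).

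All 3 receptor promoters held a match to CGATAA or CGATAG, the sequence bound by the insulator protein BEAF-32, within 50 bp of the summit. So did 38.1% of all conservative summits, and 5 of the 15 pathway summits. At put there were 3 in a stretch of 26 bases (chr3R:14625672-14625697 of dm6, minus strand, from RefSeq release 6), shown here with the matches, read on the other strand, in capitals.
put promoter site: TTATCGcCTATCGgccatcgCTATCG

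The receptor-activated Smad gene Mad (Mothers against dpp; FBgn0011648, 2L, 3146056 to 3159643, minus strand) had no conservative peak. Its strongest peak in the ranked series list, which carries no threshold, was 64.2 (2L, 3159522 to 3159897), 67 bp upstream of the start, with 64.7 in replicate 1 and 19.7 in replicate 2. This peak was in the second series list and in that of replicate 1. A second ranked peak of 57.4, 694 bp inside Mad, had 28.3 and 33.5. The promoter peak was thus the one with the large replicate gap, a log2 ratio of 1.71, and the inner peak was slightly higher in replicate 2.

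The common Smad gene Med (Medea; FBgn0288966, 3R, 31611046 to 31615375, plus strand) was in 0 of the 4 thresholded lists. The ranked series list nevertheless held a peak of 452 in its window (3R, 31609782 to 31610024), with 291 in replicate 1 and 154 in replicate 2. That is above the strongest conservative peak of any of the other 9 genes, and would stand at rank 438 among the 4488 conservative peaks. The replicates differed there by a log2 ratio of 0.92. Its IDR score was 1000, while the lowest score in the conservative list was 830. Of the 4636 ranked peaks with a score of 830 or more, 148 (3.19%) were absent from the conservative list, and the Med peak was the 19th strongest of these and the only one in the windows of the 10 genes. The summit lay 1154 bp upstream of Med but 77 bp from a start site of CycG (cyclin G), a gene that runs the opposite way and overlaps the start of Med. At the start of Med itself, 59 bp inside, the ranked peak had a signal of 39.2, with 15.9 and 18.6 in the replicates. So the strong peak was at a promoter of the neighbour, and the count of 0 for Med holds for the thresholded lists alone.

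The ranked summits of both Smad genes held 2 matches each to CGATAG, in capitals on either strand. They are chr2L:3159660-3159760 of dm6, minus strand, for Mad and chr3R:31609842-31609942, plus strand, for the Med window. They are shown because these are the genes without a conservative peak. Of all conservative summits, 38.1% held at least 1 match to CGATAA or CGATAG.
Mad ranked peak: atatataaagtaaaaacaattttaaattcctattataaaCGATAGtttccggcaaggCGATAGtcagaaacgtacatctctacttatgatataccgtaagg
Med window ranked peak: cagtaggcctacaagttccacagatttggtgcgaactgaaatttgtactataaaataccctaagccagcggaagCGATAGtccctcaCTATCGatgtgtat

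The gene of the Smad cofactor, shn (schnurri; FBgn0003396, 2R, 11159086 to 11217394, plus strand), had 3 conservative peaks. The strongest (2R, 11197342 to 11197717), in an intron 746 bp from the fourth start site, had 198, with 139.8 in replicate 1 and 55.3 in replicate 2. The second (2R, 11173618 to 11173993) lay 3 bp from the second start site and had 142, with 102 and 39.7. The third (2R, 11204505 to 11204880) lay 64 bp from the fifth start site and had 100.4, with 64.3 and 30.1. The 3 log2 ratios were close together, at 1.34, 1.36 and 1.10. Start sites 1 and 3 had no conservative summit within 1000 bp. In the list of replicate 1 shn had 6 peaks, the most of the 10 genes, and in that of replicate 2 it had 1, the strongest.

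The repressor gene brk (brinker; FBgn0024250, X, 7307939 to 7311132, plus strand), whose product represses many Dpp targets and which Shn with Mad and Med silences, had 1 conservative peak. It lay 298 bp upstream (X, 7307453 to 7307828) with a signal of 91.1, 77.45 in replicate 1 and 31.5 in replicate 2. A different brk peak was in the second series list (X, 7306585 to 7306960), 1166 bp upstream, with 97.0 in the series and 80.7 and 11.1 in the replicates. The lists thus gave brk 1 peak each but not the same one, and the farther peak had a log2 ratio of 2.87. Neither was in the list of replicate 2.

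Dad (Daughters against dpp; FBgn0020493, 3R, 17054007 to 17070408, plus strand), the inhibitory Smad that Dpp signalling itself induces, had 2 conservative peaks. The stronger (3R, 17065361 to 17065736) lay in an intron, 11.54 kb into the gene, and had 119.7, with 79.6 in replicate 1 and 34.8 in replicate 2. It was the one pathway peak over 1000 bp from every annotated start site, the nearest being that of Ns1 at 7126 bp. The weaker (3R, 17053836 to 17054211) lay 17 bp inside the gene and had 92.9, with 44.65 and 44.4. The order of these peaks was turned round in replicate 2, where the promoter was the higher of the pair and the intron peak was not in the list.

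The antagonist gene sog (short gastrulation; FBgn0003463, X, 15603283 to 15633434, minus strand), the fly counterpart of vertebrate chordin, had 2 conservative peaks. The stronger (X, 15626310 to 15626685) lay 42 bp from the second start site and had 133, with 100.1 in replicate 1 and 29.4 in replicate 2. The weaker (X, 15633193 to 15633568) lay 53 bp from the first start site and had 79.5, with 50.6 and 29.0. The replicate 2 signals were nearly equal, and those of replicate 1 set the order. The weaker was the one pathway peak in neither replicate's own list.

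Windows around the brk summit and the Dad intron summit are printed because each held a match to a sequence that Brinker binds. Such a match was also at 2 shn summits, not printed, and at 15.6% of all conservative summits. The sequences searched were GGCGCC with its variant GGCGTC, and also GGCGCT with its variant GGCGTT. In the Dad intron (chr3R:17065499-17065599 of dm6, plus strand) capitals mark first a GAGAG, then a GGCGCT that runs into a CTCTC, and then a GGCGCC. In brk (chrX:7307591-7307691, plus strand) they mark AGCGCC, which is GGCGCT on the other strand.
Dad intron peak: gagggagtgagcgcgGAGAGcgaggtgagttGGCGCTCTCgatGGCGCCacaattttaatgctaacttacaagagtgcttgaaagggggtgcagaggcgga
brk upstream peak: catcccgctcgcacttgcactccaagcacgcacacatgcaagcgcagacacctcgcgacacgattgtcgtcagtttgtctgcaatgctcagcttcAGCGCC

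**Figure D2:**
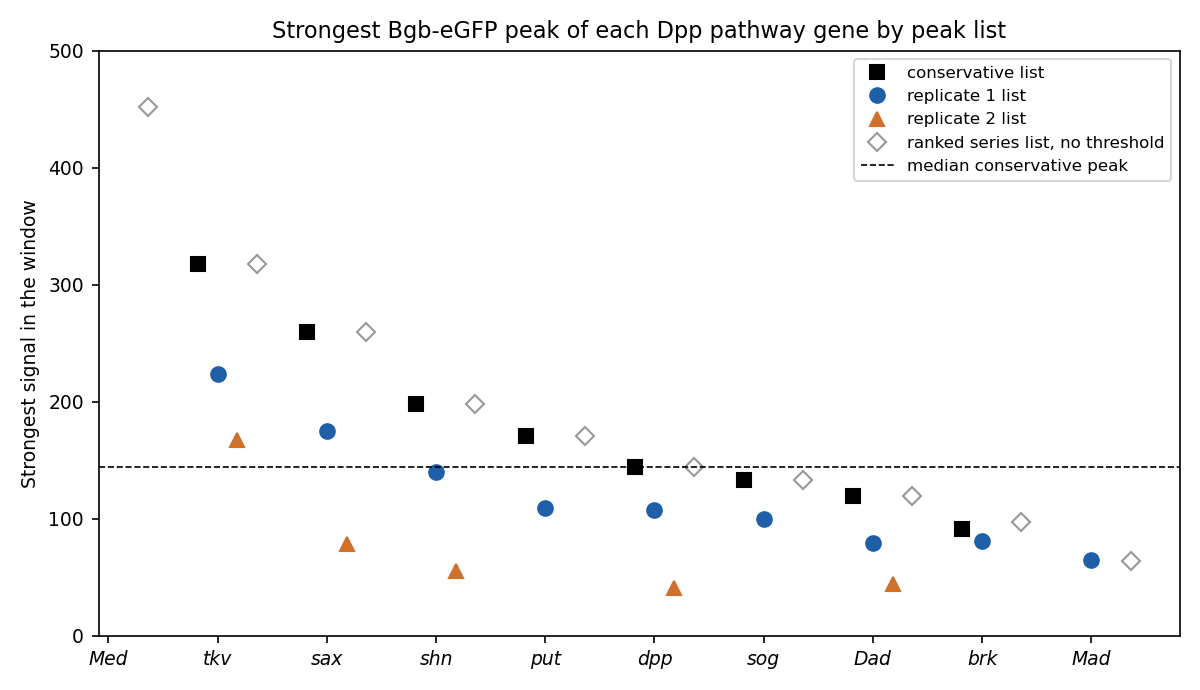
Strongest signal in the window of each gene in the conservative list (squares), in the list of replicate 1 (circles), in that of replicate 2 (triangles) and in the ranked series list without a threshold (open diamonds). The y axis is the authors' signal and the dashed line is the median conservative peak, 144.4. A missing symbol means no peak in that list, as for Med in the 3 thresholded lists drawn and for put, sog, brk and Mad in replicate 2.

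By its strongest conservative peak the order of the genes was tkv, sax, shn, put, dpp, sog, Dad and brk. Read in replicate 1 at the same peaks, sax (175) stood above tkv (147) and the rest of the order was the same. The tkv value here is that of its intron peak, and its promoter peak, at 224 in replicate 1, stood above sax. In replicate 2 put (56.0) stood just above shn (55.3), and sog (29.4) came last behind Dad (34.8) and brk (31.5). The places of neighbours in the order thus changed with the replicate for these genes, while dpp stood at place 5 in each. The pathway peaks were of ordinary strength. Their median signal was 133 (78.45 to 318) beside 144.4 for all conservative peaks, and 5 of 15 lay above that median.

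Most of the peaks were promoter peaks, like the list as a whole. Of 15 summits, 14 lay within 1000 bp of a start site of any gene (93.3%, beside 88.4% of all conservative summits), and 13 within 1000 bp of a start site of the pathway gene itself. Seen from the start sites, 15 of the 24 annotated in the 10 genes had a conservative summit within 1000 bp (62.5%), beside 6056 of 19275 (31.4%) over all protein-coding genes. This held for 6 of the 10 first start sites and 9 of the 14 later ones. Neighbouring start sites of 1 gene can share a summit, so these counts are not independent of each other. Peaks with the width of 376 bp, the commonest in the list, made up 12 of 15 (80.0%), beside 60.5% of all. The 15 windows of 101 bp had a median GC content of 50.5% (28.7 to 61.4), beside 44.6% over all.

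**Figure D3:**
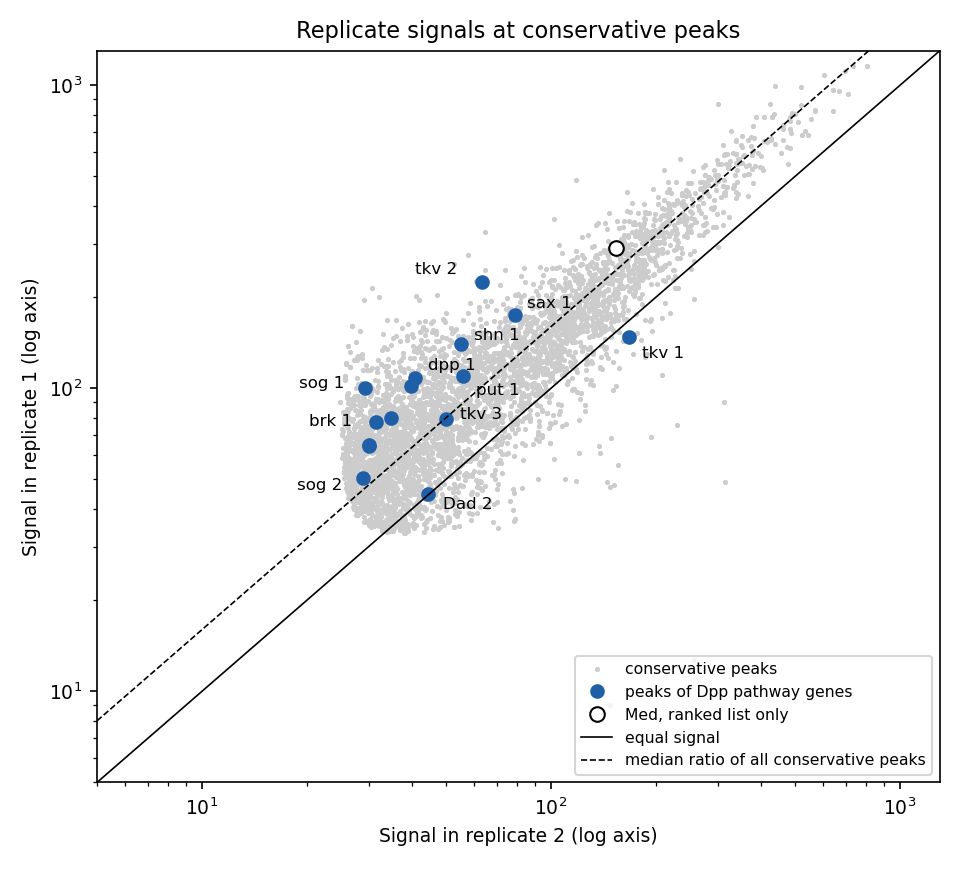
Signal in replicate 1 against signal in replicate 2 at each conservative peak, both on log axes, in the authors' units without rescaling. Grey points are all conservative peaks, blue points those of the 10 genes and the open circle the ranked peak in the Med window. The solid line marks equal signals and the dashed line the median ratio of all conservative peaks. The intron peak of tkv lies below the line of equality, and Dad at its promoter lies on it. Of the 15 pathway peaks, 12 lie above the median log2 ratio of peaks of their signal range, 0.72, which is not drawn here.

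Replicate 2 gave the lower signal at nearly all of the pathway peaks, as it did over the whole list. The signal was higher in replicate 1 at 14 of 15 pathway peaks (93.3%, beside 91.7% of conservative peaks with both signals). The median log2 ratio of the 15 was 1.15 (−0.18 to 1.82). Over the 4459 conservative peaks with a signal in both replicates the median was 0.68 (SD 0.52 across peaks), and 8.34% were higher in replicate 2. Among the 3011 conservative peaks with signals between the lowest and the highest of the pathway peaks, a range chosen after seeing the data, the median was 0.72 and the quartiles 0.37 and 1.08. Of the 15 pathway peaks, 12 lay above that median and 10 above the upper quartile. Peaks of 1 gene share a locus and there is 1 library a replicate, so these are descriptions and were not tested. The summits of the replicates themselves lay close together, a median of 25 bp apart (at most 160, at brk), beside 22 bp over all peaks.

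The lists of single replicates followed the same division. Of the 15 pathway peaks 14 were also in the list of replicate 1 and 7 in that of replicate 2 (1 of dpp, 3 of tkv and 1 each of sax, shn and Dad). Over all conservative peaks these shares were 90.8% and 67.8%. Peak width moved with this too. Of conservative peaks 376 bp wide 48.0% were in the list of replicate 2, and of narrower ones 98.0%.

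**Figure D4:**
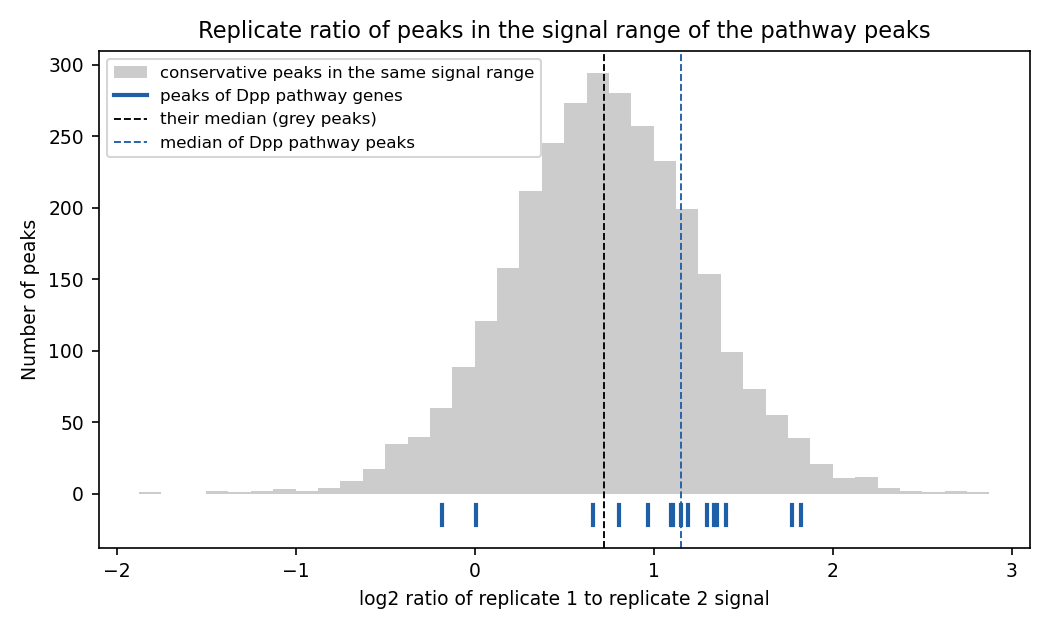
Log2 ratio of the replicate 1 to the replicate 2 signal. Grey bars count the conservative peaks whose signal lies in the range of the pathway peaks, blue ticks under the axis are the 15 pathway peaks, and dashed lines are the 2 medians. The median of the pathway peaks is 1.15 and that of the grey peaks 0.72, with tkv at its tRNA gene and Dad at its promoter as the lowest 2 ticks.

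The tkv intron peak belonged to a small class. In the conservative list 135 summits lay within 100 bp of a tRNA start, a distance chosen after seeing the data, with a median signal of 199.6 and a median log2 ratio of 0.23. Where both replicates had a signal, that of replicate 2 was the higher at 45 of 133 of them (33.8%), against 327 of 4326 other peaks (7.56%). Without this peak, the strongest of tkv is its promoter at 279.6, still the highest of the 8 genes in the conservative list.

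Windows of 101 bp around the summits were searched on both strands. CGATAA or CGATAG was found at 5 of 15 pathway summits, both upper tkv peaks, sax, put and the weaker sog peak, beside 38.1% of all conservative summits. TATCGATA, which can overlap it, was at tkv and sax (2 of 15, beside 15.2%). GGTCACAC, the sequence of M1BP, was at sax (1 of 15, beside 4.32%). GAGAG was found at 5 of 15, in the weaker dpp peak, the tkv intron, the second shn peak, the Dad intron and the stronger sog peak, beside 13.5% of all. The 4 Brinker sequences together were found at 4 of 15, in 2 shn peaks, brk and the Dad intron, beside 15.6%. The sequences that the Runt partners of Bgb bind were searched as AACCACA with its variant AACCGCA, and also as GACCACA with its variant GACCGCA. They were in 0 of the 15 conservative windows, beside 4.72%. In windows of 201 bp 1 of 15 held one, the stronger sog peak, beside 8.96%. Outside the conservative list, a shn peak (2R, 11198122 to 11198497) 34 bp from the fourth start site held 1 match within 50 bp of its summit. It had 98.0 in the second series list and 74.3 in that of replicate 1. The share over all peaks of those 2 lists was not computed. CAGGTAG, the sequence of the early activator Zelda, was in 0 of 15 at either length, beside 0.379% and 0.824%. A match describes letters only and says nothing on whether a factor was bound.

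Over the whole list, peaks with and without a match were set side by side. Conservative peaks with GAGAG had a median signal of 118 and a median log2 ratio of 0.78, and 52.6% were in the list of replicate 2. Those without had 151, 0.66 and 70.1%. Peaks with CGATAA or CGATAG had 238 and 0.67, with 84.8% in the list of replicate 2, against 116, 0.68 and 57.3% without, so that the signal and the share differed but the ratio hardly did. Peaks with a Brinker sequence had 139, 0.71 and 64.0%, close to the 145.5, 0.67 and 68.5% of those without. The part of these in the replicate gap at the pathway genes was not tested.

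The silencer element, a composite sequence through which Mad, Med and Shn repress brk and other genes, was searched by its consensus in the same windows and in the whole windows of the genes. It was in 0 of 15 summit windows and in 1 of all 4488 (0.0223%). Along the windows of the 10 genes 2 matches were found, 1 in shn and 1 in sog, and 2.32% of protein-coding windows held one. Both windows are long, and per 100 kb there were 0.833 matches in the 10 windows, which rests on these 2, and 0.280 over the chromosome arms. Neither lay in a conservative peak, the nearest summits being 1887 bp away in shn and 1697 bp away in sog. In the ranked list without a threshold a summit with a signal of 52.55 lay 89 bp from the shn match, and one with 22.05 lay 633 bp from the sog match.

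Beyond the 10 genes, 38 other genes of BMP and activin signalling were read by role. Of these 23 had a conservative peak (60.5%, beside 37.4% of all protein-coding genes). In 15 of the 23 the strongest peak was nearest to a start site of the gene itself, a share not computed over all genes. With summits given to the nearest protein-coding start site, 18 of the 38 had a peak, beside 27.2% of all protein-coding genes. Several of the 38 genes are long, and their share was not split by window length. Over all protein-coding genes the share was 34.0% for windows under 10 kb and 53.9% for windows over 30 kb. The ligands had one in 2 of 6, namely Actbeta, an activin, with 510.2 (330.3 in replicate 1 and 179.8 in replicate 2) and gbb, a BMP, with 295 (175.5 and 115). The gbb peak was nearest to the start of an antisense RNA gene. Both other receptor genes had one, babo, the activin type I receptor, with 562 (354 and 214) and wit, a type II receptor, with 104 (56.6 and 44.7). The babo peak was nearest to its neighbours CG33199 and CG8229. Smox, the Smad of the activin branch, had 0 in the conservative list, as Mad and Med did. Like Mad, it had 1 peak in the second series list and 1 in that of replicate 1.

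Of 9 extracellular modulators 6 had a peak, led by the glypican gene dlp with 647 (423 and 265), tok, a Tolloid-related protease, with 273 (169.9 and 106) and magu with 207 (129 and 72.9), the last nearest to sel. Of 6 intracellular regulators 5 had one. The strongest were gro, the Groucho co-repressor, with 379.7 (228 and 143), MAN1 with 304 (177 and 119), nearest to Chi, and Smurf, a ubiquitin ligase of Mad, with 268.5 (165 and 99.8). Of 14 known targets 8 had one, led by Ance with 504 (268.5 and 234), nearest to Smg5, ush with 142 (96.8 and 45.9) and bi, also called optomotor-blind, with 117 (79.7 and 26.4). The bi peak, like the tkv promoter peak and the stronger one of sog, was over 3 times lower in replicate 2.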

How the data were processed

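Peak lists on the dm6 build were deposited by the authors for the series and for each of the 2 samples. Not given in the sources used here are the aligner, the caller of peaks, and how signals were scaled. The signal is the authors' value, as deposited, compared between replicates without rescaling. The deposited −log10 q value was read but not ranked on, since 57.9% of conservative peaks share the highest, 3.74. Replicate signals of a series peak were looked up in each sample's own ranked list at the position the series ranked list gives, with 0 matches to the other sample.

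Genes and start sites came from Ensembl release 115, and sequence from the RefSeq release 6 genome, where all 10 genes have the same start and end. Summits were assigned by the 2 kb window. The interval of a share is exact (Clopper-Pearson) and covers counting error only, and depth is unknown. With 1 condition no test was made. The pathway genes, the wider list and the motifs were chosen with earlier results of these data known. All 10 genes are named, and of the wider list up to 3 per role with the strongest peak. The scripts were tested on simulated data. Alternatives were the second series list, each replicate alone, the stronger 50% of peaks and other windows, distances and overlaps. Values were computed in Python 3.11.15 with pandas 2.3.3, numpy 2.4.6 and scipy 1.17.1, and plots were drawn with matplotlib 3.10.9.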

Additional observations from a re-analysis of the deposited data

How the results depend on the processing

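Of the 10 genes, 8 had a peak with the conservative list. The count was also 8 with 5 kb upstream, with the nearest protein-coding start site and with 1 bp of overlap. The share of all protein-coding genes moved, from 37.4% with the conservative list to 45.5%, 27.2% and 38.8% under these settings, in that order. The count of pathway genes was 9 with the second series list and 6 with the gene body only. Leaving out a replicate gave 5 (without replicate 1) to 9 genes, and 7 to 23 peaks in place of 15. With the stronger 50% of peaks there were 4 genes with 5 peaks, and dpp, at 143.9, fell just under that limit. The share of all protein-coding genes was then 23.2%, and 12.8% with the gene body only. The wider list gave 13 and 10 genes under these settings, in place of 23. Within 500 bp of a start site there were 12 promoter summits in place of 14. These counts and shares thus depended on the setting, and the order of some signals changed with the replicate. The changes in order are given above for sax and tkv, put and shn, the Dad pair, and the tkv intron peak (147 in replicate 1) and promoter peak (224). No paired analysis was possible because there is 1 group. Unknown depth and 1 library a replicate limit every count from replicate 2, and the causes of these changes were not tested.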

Other observations

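A gene of the wider list, chosen after its values were seen, had a peak like that in the tkv intron. The kinase gene nmo (nemo), whose product can phosphorylate Mad, had its strongest conservative peak 50 bp from the start of a tRNA gene inside it, tRNA:Ala-AGC-2-1. Its signal was 210.5, with 98.5 in replicate 1 and 114.8 in replicate 2, so that replicate 2 was again the higher. The conservative peaks nearest to the ranked Med peak were 8.623 kb before it, with a signal of 64.2, and 59.5 kb after it, at Zmynd8, with 254.6. Between these lay 105 ranked peaks, and the strongest other than the Med peak had 59.9.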
